A study of Rattus norvegicus with 16 samples.

Results

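The cytosolic ribosomal protein genes make the protein shell of the ribosome, and their expression was measured cell by cell in the intervertebral discs of rats with and without a needle injury. Members were taken by name only: symbols made of Rpl or Rps and a number, with the usual suffixes for isoforms and like copies, together with Rplp0, Rplp1, Rplp2 and Rpsa, and listed for all 16 libraries. The rule found 74 of the 13596 genes listed in every library, with no use of their measured values. Of these, 43 encode proteins of the large (60S) subunit and 31 proteins of the small (40S) subunit. They include 65 of the 79 standard ribosomal protein genes and 9 genes named as like copies (paralogs) of a standard member, namely Rpl22l1, Rpl35al1, Rpl36al, Rpl39l, Rpl3l, Rpl7l1, Rps10l1, Rps18l1 and Rps27l. Rplp1 and Rplp2, which the rule names, were not listed and were not analysed here.

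The 16 libraries came from 8 male Sprague-Dawley rats operated on at 8 weeks of age, and each rat gave 2 libraries. The LDP library (lumbar disc puncture) pooled the L4-5 and L5-6 discs, which a 27G needle had punctured from one side, and the CON library pooled the unpunctured L2-3 and L3-4 discs of the same rat. Rats 1 to 4 were taken 2 weeks and rats 5 to 8 were taken 8 weeks after surgery, so each condition at each time had 4 libraries from 4 separate rats, and no unoperated rat was included. Puncture and disc level thus changed together in every rat, and injury below means LDP against CON discs. Each library pooled the cells of 2 discs, digested with pronase and collagenase, and was sequenced as 3′ single-cell RNA. A cell's values are counts of unique molecular identifiers (UMIs, 1 per captured transcript) scaled to the same total in every cell and written as CPM, and the level in a library is the mean over its cells. Since a 3′ library counts 1 tag per transcript, CPM was not divided by gene length, and levels of different genes are compared on this CPM scale.

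Ribosomal proteins are made in equal numbers, because each ribosome holds 1 copy of nearly every one of them, and their messenger RNAs are among the most abundant in a growing cell. Most of these messengers begin with a C followed by a run of pyrimidines, the 5′ terminal oligopyrimidine (TOP) sequence, through which growth signals acting on mTOR raise or lower their translation together. In the disc they are made by the chondrocyte-like cells of the nucleus pulposus (NP), the inner annulus fibrosus (IAF) and the outer annulus fibrosus (OAF), which build a collagen and proteoglycan matrix, and by the endothelial and immune cells that surround or enter it.

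The 60 bases around the annotated RefSeq transcription start (40 before it and 20 from it on, build GRCr8) are shown for 9 members, to set the letters at the start beside the values below. The first 4 are members that passed the injury test, the next 3 led the comparison of times, and the last pair, Rpl39l and Rpl3l, are the paralogs with the most uneven use among cell classes. Capitals mark CTTTC, a short run of the TOP kind, where it lay within 20 bases on either side of the start, and matches farther away stay in lower case. Positions are Rps27 at chr2:177964587-177964646 (minus strand), Rpl41 at chr7:1563478-1563537 (minus), Rpl36 at chr9:1533740-1533799 (plus), Rpl37a at chr9:81748051-81748110 (plus), Rpl31 at chr9:49143071-49143130 (plus), Rps21 at chr3:187723998-187724057 (plus), Rps27l at chr8:76443618-76443677 (plus), Rpl39l at chr10:5966602-5966661 (minus, listed as Rpl39l1) and Rpl3l at chr10:14258406-14258465 (plus).
Rps27: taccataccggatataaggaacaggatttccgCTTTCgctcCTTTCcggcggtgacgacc
Rpl41: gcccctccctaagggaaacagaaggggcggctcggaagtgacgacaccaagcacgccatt
Rpl36: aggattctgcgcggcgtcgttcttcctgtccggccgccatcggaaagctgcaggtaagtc
Rpl37a: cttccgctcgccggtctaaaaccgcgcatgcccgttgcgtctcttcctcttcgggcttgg
Rpl31: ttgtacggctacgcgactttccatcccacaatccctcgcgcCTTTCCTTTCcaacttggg
Rps21: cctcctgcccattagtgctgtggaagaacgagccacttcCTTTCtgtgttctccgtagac
Rps27l: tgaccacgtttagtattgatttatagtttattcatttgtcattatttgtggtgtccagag
Rpl39l: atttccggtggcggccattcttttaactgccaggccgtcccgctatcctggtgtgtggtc
Rpl3l: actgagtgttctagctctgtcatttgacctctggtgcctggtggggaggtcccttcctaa

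The letters CTTTC lay within 20 bases on either side of the annotated start, on the strand of the gene, in 23 of the 58 members whose start was in the sequence table (39.7%). Among all 27457 starts of that table the share was 5.04%, and on the opposite strand it was 1.72% of members and 4.93% of all starts. In the sequences above it was present in Rps27, Rpl31 and Rps21. The match is a description of letters near an annotated start, which may differ from the start used in these cells.

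The libraries held 2221 to 15918 cells each, 149272 in all, and their median depth was 3861 to 8092 UMIs. The authors' names split them into IVD cells (disc cells, 1313 to 14252 per library), endothelial, myeloid and lymphoid cells and cells without a name, and at 2 weeks split the IVD cells further into 3 subclusters. Markers matched these names: the summed level of 6 endothelial markers was 2653 to 5824 CPM in endothelial cells and 10.1 to 192 CPM in IVD cells, and that of 5 lymphoid markers was 1308 to 3777 CPM in lymphoid cells and 0.8 to 42.4 CPM in IVD cells. The myeloid class was less even, since its 3 granulocyte markers ranged from 0 to 50362 CPM. The subclusters of both conditions carry numbers only. In CON discs number 1, which the paper calls NP, was taken as NP, number 2 as IAF and number 3 as OAF. In LDP discs number 3 was taken as OAF from its markers (Col1a1 35356 to 67556 CPM against 1634 to 4021 CPM in the others). There number 2 was taken as NP and number 1 as IAF by depth, since NP was the deeper of the pair in CON discs (LDP library medians 7894 to 10580 against 4100 to 6403 UMIs). Markers of the latter pair went both ways, since number 2 had more Krt8 (mean 28.1 against 18.2 CPM) and Cd24 (409 against 353 CPM), both NP markers, but also more Col1a1 (3081 against 1993 CPM), less Col2a1 (9017 against 10934 CPM) and like Krt18 (2.61 against 2.85 CPM). The NP and IAF names are therefore uncertain in LDP discs, where values under them are those of numbers 2 and 1. Barcodes that occur in more than 1 library belonged to 5551 cells (3.72%).

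Together the 74 members took up 10.1 to 17.4% of the UMIs of IVD cells, with higher means in LDP than CON discs and at 8 than at 2 weeks. The summed share was 11.2% ± 1.10 (SD, n = 4) in CON and 12.5% ± 2.29 (n = 4) in LDP discs at 2 weeks, and 13.4% ± 0.551 (n = 4) and 15.4% ± 1.43 (n = 4) at 8 weeks. The percentage of ribosomal reads that the authors deposited for each cell, which rests on their own gene set, was 11.5% ± 1.15, 12.8% ± 2.35, 13.7% ± 0.580 and 15.7% ± 1.44 in the same order. Large and small subunit genes moved in step, and the ratio of their summed CPM stayed between 1.28 and 1.37 in all 16 libraries.

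In IVD cells at 2 weeks, rats 1 to 4 had a member share of 11.4%, 10.6%, 10.1% and 12.7% in CON and of 11.4%, 11.97%, 10.8% and 15.8% in LDP discs. At 8 weeks, rats 5 to 8 had 13.1%, 12.8%, 14.1% and 13.6% in CON and 17.4%, 15.0%, 14.8% and 14.1% in LDP discs. The LDP disc was the higher in every rat, by 0.0245 to 3.19 percentage points at 2 weeks (mean 1.30, SD 1.37, n = 4) and by 0.579 to 4.37 points at 8 weeks (mean 1.97, SD 1.76, n = 4), so the SD between rats was close to the mean at both times. By the authors' deposited percentage rat 1 turned (LDP minus CON -0.00598 points), so LDP was the higher in 3 of 4 rats at 2 weeks and in 4 of 4 at 8 weeks. Rats 4 and 5 had the widest gaps. Without rat 4 the mean at 2 weeks was 0.669 points, and without rat 5 the mean at 8 weeks was 1.17 points.

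**Figure D1:**
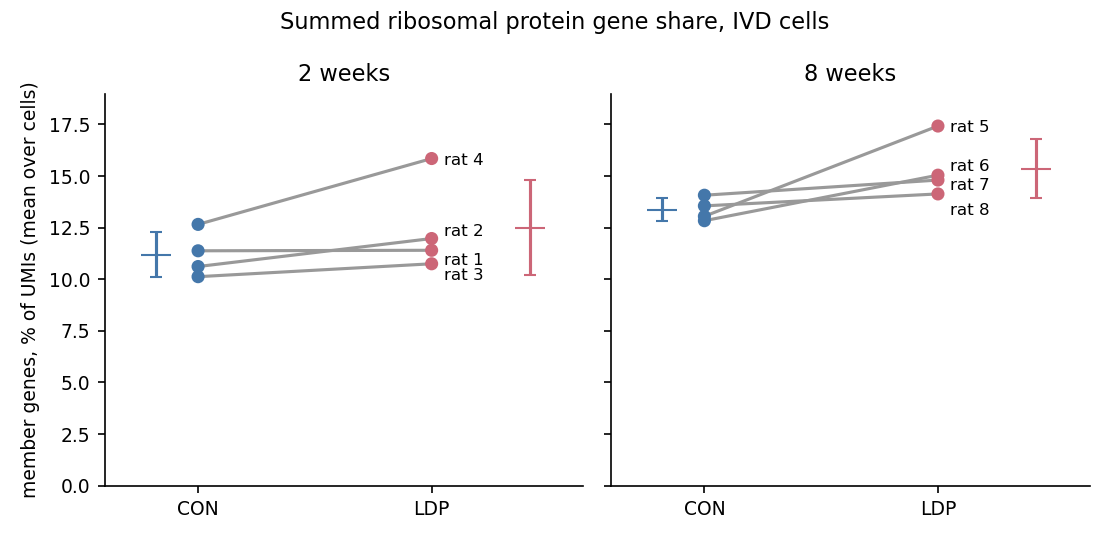
Summed share of the 74 ribosomal protein genes in IVD cells (y axis, percent of UMIs) in the CON and LDP library of each rat, with 1 line per rat, 1 panel per time after surgery, and the mean and SD of each group beside the lines. All 8 lines rise from CON to LDP, by the most in rats 4 and 5, and the CON libraries at 8 weeks lie above those at 2 weeks.

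Single members spanned a wide range of levels in IVD cells. Rpl41, which encodes the smallest ribosomal protein, was the highest at 6076 CPM ± 1312 (SD, 16 libraries), and Rpl19 was among the next at 4243 CPM ± 560. The lowest were Rpl3l at 0.37 CPM ± 0.45, Rpl39l at 7.87 CPM ± 3.21 and Rpl7l1 at 10.2 CPM ± 2.77. In all, 52 members had a mean of at least 1000 CPM, 16 lay between 100 and 1000 CPM, 4 between 10 and 100 CPM and 2 under 10 CPM, and the 10 highest made up 32.1% of the members' summed CPM. A low tag count is not a low protein level: Rps29, a standard small subunit protein, was counted at only 5.06 to 19.5 CPM, and reads that fit near-identical copies may be lost or split between genes.

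Among the members with special roles, Rplp0, the base of the stalk that recruits elongation factors, ranged from 3431 to 6607 CPM over the 16 IVD libraries. Rpsa, a small subunit protein also known as a laminin receptor, ranged from 1892 to 3583 CPM. Rpl5 and Rpl11, which bind the 5S RNA and can hold back Mdm2 when ribosome assembly fails, were at 1143 to 2081 CPM and 1576 to 2629 CPM. Rps19, a gene mutated in Diamond-Blackfan anaemia, was at 252 to 961 CPM and varied more between libraries of 1 group: in CON discs at 8 weeks it was 323, 737, 881 and 431 CPM in rats 5 to 8.

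Most members followed the shared level from library to library. Over the 16 IVD libraries, which share 8 rats and differ in depth, 63 of the 74 members had a correlation above 0.5 with the log2 of the members' summed CPM (median Pearson's r 0.86), given here as a description since each member is part of the sum. Rpl7l1 (r = -0.53) and Rps18l1 (r = -0.41) were the 2 with a value below 0. Among the genes outside the list with at least 50 CPM, the 5 that followed the members' sum most closely, of 2412 ranked, were Atp5f1e (r = 0.98), LOC100362830 (r = 0.97), AC141489.1 (r = 0.96), Uqcrb (r = 0.96) and Atp5mc2 (r = 0.96). Atp5f1e and Atp5mc2 encode subunits of the mitochondrial ATP synthase and Uqcrb a subunit of respiratory complex III. Atp5f1e ranged from 302 to 611 CPM.

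Relative to the IVD cells of the same library, lymphoid cells carried the largest member share of the named classes, and OAF cells carried less than the other disc subclusters. These are descriptions, because the classes were drawn from the same cells' values, and no test was made between classes. In the 11 libraries with at least 20 lymphoid cells the lymphoid share was above the IVD share of the same library each time, by 0.36 ± 0.20 on the log2 scale (SD, range 0.15 to 0.78), which is 1.29-fold. Lymphoid cells were shallower, with a median of 2176 UMIs against 6450 in IVD cells (each a median over libraries of the cell median). In cells of 2000 to 4000 UMIs of both classes the log2 ratio was 0.52 (9 libraries).

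Endothelial cells were above IVD cells in 11 of 12 libraries (0.11 ± 0.15 on the log2 scale, SD), and myeloid cells were above in 8 of 15 libraries (-0.01 ± 0.28). The myeloid libraries split by condition, with 7 of 8 CON libraries above IVD cells (0.18 ± 0.22, range -0.11 to 0.63) and 1 of 7 LDP libraries (-0.23 ± 0.15, range -0.45 to 0.04). The cells without a name were above in 6 of 16 libraries (-0.14 ± 0.31). Lymphoid exceeded myeloid cells in 8 of 10 libraries (0.35 ± 0.37), in 2 of 4 CON and 6 of 6 LDP libraries.

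**Figure D2:**
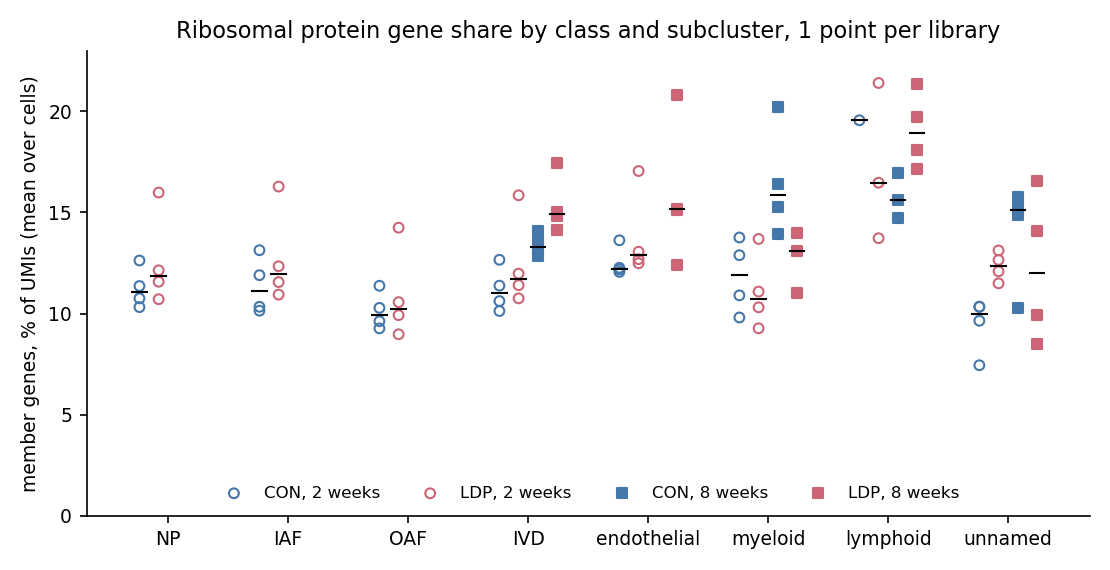
Summed share of the 74 ribosomal protein genes (y axis, percent of UMIs) in each cell class and 2-week subcluster, with 1 point per library of at least 20 cells, coloured by condition, shaped by time, and with a bar at each group's median. Lymphoid points reach 21.4%, and endothelial and myeloid points overlap those of IVD cells.

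Of single members against IVD cells, 28 were higher in lymphoid cells in all 11 libraries and 1, Rpl39l, was lower in all. No share of all genes stands beside this or the counts for the other classes below, so they are descriptions only. Rpl13a, a large subunit protein, was at 248 to 1037 CPM in lymphoid cells, and its log2 ratio was 1.18 (range 0.13 to 1.73 over 11 libraries), against a median of 0.31 for all members. Rps28, a small subunit protein, was at 3121 to 6688 CPM in lymphoid cells, with a ratio of 1.18 (range 0.95 to 1.499). At the lower end beside Rpl39l stood Rpl36a (-0.74, range -5.03 to 1.49) and Rps25 (-0.26, range -0.74 to 0.23), which were not lower in every library. The Rpl36a value rests on 650 lymphoid UMIs in all, with 0 CPM in CON rat 7.

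In endothelial cells 8 members were higher and 4 lower than in IVD cells in all 12 libraries. Rpl13a (0.75 on the log2 scale, range 0.37 to 0.95), Rpl3 (0.68, range 0.39 to 0.93) and Rps28 (0.59, range 0.40 to 0.91) were highest relative to the median member. Rplp0 (-0.35, range -0.64 to -0.12) and Rps10l1 (-0.33, range -0.70 to -0.18) were lower in every library, while Rpl39l (-2.14, range -3.96 to 0.73) was lower in 11 of 12. In myeloid cells Rpl10 and Rps28 (0.58, range 0.27 to 1.12) were higher in all 15 libraries and Rpl39l was lower in all. Rps15 (0.43, range -0.14 to 1.25) was higher in 14 of 15, and Rpl7l1 (-0.67, range -3.57 to 0.89) was lower in 11 of 15. In the cells without a name Rpl39l (-1.87) was lower in all 16 libraries, Rps6 (-0.50) in 14 and Rpl36a (-0.51) in 14, and Rpl3 (0.33) was higher in 13. Against myeloid cells, lymphoid cells were furthest above the median member in Rpl3l (4.86 on the log2 scale), Rpl7l1 (1.57, range -3.31 to 6.36) and Rpl13a (1.42, range 0.32 to 2.14), and furthest below it in Rpl10 (-0.32), Rpl36a (-0.19) and Rpl3 (-0.14). The values of Rpl3l and Rpl7l1 rest on 26 and 65 myeloid UMIs, with 6 and 2 of 15 myeloid libraries at 0.

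**Figure D3:**
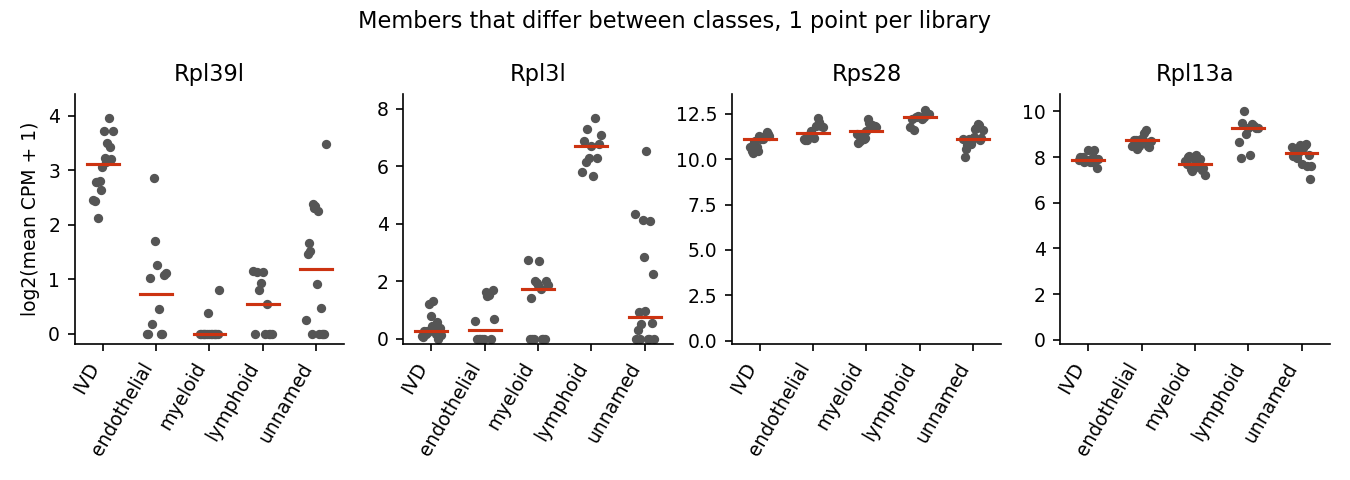
Levels of Rpl39l, Rpl3l, Rps28 and Rpl13a by cell class (y axis, log2(CPM + 1) of the library mean), with 1 point per library and a bar at the median. Rpl3l stands at 49.3 CPM or more in all lymphoid libraries and at most at 1.499 CPM in IVD cells, while Rpl39l has its highest median in IVD cells and is at 0 in 13 of 15 myeloid libraries.

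Rpl3l is known from heart and skeletal muscle, where it can take the place of Rpl3 in the ribosome. Among the named classes of these discs it was counted mostly in lymphoid cells. It was at 49.3 to 202 CPM in the 11 lymphoid libraries (median 103 CPM) and at 0 to 1.499 CPM in the 16 IVD libraries, and the groups did not overlap. One UMI or more was found in 1490 of 8021 lymphoid cells (18.6%, exact 95% interval 17.7 to 19.4, by library 9.56 to 37.3%). The same held for 282 of 127077 IVD cells (0.222%, interval 0.197 to 0.249, by library 0 to 0.826%), although IVD cells were the deeper class. The share was 0.227% of endothelial cells (median depth over all their cells 2214 UMIs) and 1.40% of myeloid cells (4117 UMIs), and the intervals cover counting error only. In IVD cells Rpl3l was highest in CON rat 6 (1.499 CPM) and LDP rat 3 (1.33 CPM), the 2 libraries with the most lymphoid cells (1590 and 2781). In the cells without a name it reached 90.8 CPM. Rpl3 itself was at 1115 to 1792 CPM in IVD cells. How reads shared by Rpl3 and Rpl3l were assigned is not given in the sources used here.

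Rpl39l, a paralog of Rpl39 known from the testis, showed the opposite pattern. It was at 3.35 to 14.6 CPM in the 16 IVD libraries, from 6633 UMIs in all. A UMI was held by 3.64% of IVD cells (interval 3.53 to 3.74 for counting error only, by library 1.86 to 7.38%). In myeloid cells 2 UMIs were counted and 13 of 15 libraries were at 0. In lymphoid cells 15 UMIs were counted (0 to 1.21 CPM), and in endothelial cells 15 (0 to 6.23 CPM). The share of cells with a UMI was 0.117% in myeloid cells at a median depth of 4117 UMIs and 0.175% in lymphoid cells. Rpl39 was not listed and was not analysed here.

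The other paralogs did not separate the classes in this way. Beside their parent genes in IVD cells, Rps18l1 (11.9 to 33.1 CPM) was far below Rps18 (2331 to 4009 CPM), Rps27l (159 to 414 CPM) below Rps27 (1693 to 4793 CPM) and Rpl7l1 (3.74 to 14.04 CPM) below Rpl7 (2209 to 3482 CPM). Rpl36al (747 to 1881 CPM) was above Rpl36a (19.1 to 45.0 CPM) and Rps10l1 (980 to 2147 CPM) above Rps10 (123 to 329 CPM). Rpl22l1 was at 348 to 654 CPM and Rpl35al1 at 183 to 726 CPM, and their parents Rpl22 and Rpl35a were not listed. How reads shared by a gene and its copy were assigned is not given in the sources used here, so the split within these pairs is uncertain.

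Among the 3 subclusters of the 8 libraries at 2 weeks, the OAF share was below the NP share of the same library each time (log2 ratio -0.18 ± 0.09, SD, range -0.37 to -0.06) and below the IAF share each time (-0.20 ± 0.11, range -0.36 to -0.01). NP and IAF differed by less than the spread between libraries (-0.02 ± 0.04, with NP higher in 3 of 8). NP cells were the deepest, with library medians of 6997 to 10580 UMIs, against 2442 to 6403 in IAF and 3258 to 7178 in OAF cells. The part of depth in the ratios of single members was not tested. By member, 45 of 74 were lower in OAF than in NP cells in all 8 libraries and 3 were higher in all (Rpl10, Rpl22l1 and Rpl3). Against IAF cells 37 were lower in all and 2 higher. No share of all genes stands beside these counts, which are descriptions only.

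Rpl31 was highest in NP cells, by number in LDP discs. It was at 663 to 1069 CPM in NP, 502 to 779 CPM in IAF and 419 to 627 CPM in OAF cells, and its log2 ratio of OAF over NP was -0.63 (range -0.90 to -0.42). Rpl31 was also higher in NP than in IAF cells in all 8 libraries (0.31), as was Rpl23a (0.18). At the other end Rpl3 was lower in NP than IAF cells in all 8 (-0.13). NP cells were also the deeper in all 8, in LDP discs by the naming itself, so region and depth are not separated here.

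Rps19 and Rpl5 were low in OAF cells as well. Rps19 was 0.56 lower than in NP cells on the log2 scale (OAF over NP -0.56, range -0.66 to -0.48) and had the lowest ratio to IAF cells (-0.59, range -0.74 to -0.51). Rpl5 had ratios of -0.46 and -0.44, and Rps10l1 had -0.50 to IAF cells. Rpl7l1, at few UMIs, had -0.57 to NP cells (range -1.32 to 0.09). Rpl22l1 went the other way, at 407 to 734 CPM in OAF and 342 to 529 CPM in NP cells, and was higher in OAF cells in all 8 libraries (0.41 over NP, 0.40 over IAF). Rpl3 was also higher in OAF than NP cells (0.29, range 0.14 to 0.44), and Rplp0 had a mean ratio of 0.00 to both.

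The main comparison set LDP against CON discs in IVD cells, and was made within rats by limma over all genes that passed a filter on low levels. Puncture and disc level cannot be told apart in it, since they changed together in every rat. At 2 weeks 0 of 73 members tested (all but Rpl3l) passed an adjusted p of 0.05 in either direction, where 0.181% of all 11572 genes did. At 8 weeks 0 of 73 did, against 0.259% of all genes. Unadjusted p was under 0.05 for 6 members (of 1331 genes) at 2 weeks and for 19 (of 2392 genes) at 8 weeks. DESeq2 called 0 members at 2 weeks, where it called 2.46% of all genes, and 6 at 8 weeks, all higher in LDP, where it called 2.48% of genes higher.

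Most of the members' changes were above 0, which is given as a description only. The members moved together over the libraries (median Pearson's r 0.86 with their sum), so their signs are not separate evidence. At 2 weeks 63 of 73 were above 0 with a median log2 change of 0.13, where the median of all genes was -0.08 and 35.9% of genes were above 0. At 8 weeks 69 of 73 were above 0 with a median of 0.18, beside -0.16 and 28.5% for all genes. The largest changes at 2 weeks were those of Rps29 (-0.46, SE 0.203), Rps25 (0.34, SE 0.187) and Rps10 (0.34), and at 8 weeks those of Rps25 (0.75, SE 0.187, adjusted p = 0.0986 by limma), Rps29 (-0.56, SE 0.203) and Rpl12 (0.45, SE 0.133). Whether the injury change differed between 8 and 2 weeks was tested directly, and 0 of 73 members and 0 of 11572 genes (0%) passed. No member and 206 genes had an unadjusted p under 0.05, edgeR called 0 members (0% of genes) and DESeq2 0 (0.112% of genes), and the largest differences were Rps25 (0.41, 95% interval -0.18 to 0.99) and Rpl12 (0.34, interval -0.08 to 0.75).

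Over both times together, in 8 rats, 5 of 73 members were higher in LDP than CON discs and 0 were lower, where 1.98% of all 11572 genes were called higher and 5.46% lower. Of all 73, 69 were above 0 with a median log2 change of 0.15, and the median of all genes was -0.12 with 31.0% above 0. The 5 were Rps27, Rpl41, Rps25, Rpl36 and Rpl37a.

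Rps27, a small subunit protein with a zinc finger, was at 2224, 1968, 1693 and 2755 CPM in CON and at 2905, 2495, 2021 and 3538 CPM in LDP discs of rats 1 to 4. In rats 5 to 8 Rps27 was at 3389, 3133, 3598 and 3378 CPM in CON and at 4793, 4179, 4363 and 3855 CPM in LDP discs. It was higher in the LDP disc of all 8 rats, and at 8 weeks the groups did not overlap. The log2 change was 0.34 (SE 0.0645, limma adjusted p = 0.0202), which is 1.27-fold.

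Rpl41 was at 4849, 3834, 4220 and 5821 CPM in CON and 5333, 5594, 4597 and 8218 CPM in LDP discs at 2 weeks. At 8 weeks Rpl41 was at 6239, 6330, 6326 and 5968 CPM in CON and 7679, 7581, 7572 and 7062 CPM in LDP discs, again higher in all 8 rats and without overlap at 8 weeks. The log2 change was 0.30 (SE 0.0710, limma adjusted p = 0.0384).

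Rps25, a small subunit protein that some messengers need to begin translation without a cap, changed most but least evenly. It was at 113, 145, 194 and 257 CPM in CON and 156, 202, 208 and 326 CPM in LDP discs at 2 weeks, higher in all 4 rats. At 8 weeks Rps25 was at 359, 195, 194 and 243 CPM in CON and 753, 435, 361 and 225 CPM in LDP discs, so rat 5 had the widest gap and rat 8 ran the other way. The log2 change was 0.55 (SE 0.132, limma adjusted p = 0.0385, higher in 7 of 8 rats).

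The large subunit members Rpl36 (0.31, SE 0.0760, limma adjusted p = 0.0385) and Rpl37a (0.26, SE 0.0705, limma adjusted p = 0.0498) were also higher in 8 of 8 rats. In LDP discs Rpl36 was at 1039 to 1853 CPM at 2 weeks and 2109 to 2732 CPM at 8 weeks, beside 987 to 1358 CPM and 1840 to 1900 CPM in CON discs. Rps29 had the largest negative value (-0.51, SE 0.144, limma adjusted p = 0.0571, lower in 7 of 8 rats) and missed the threshold. It was at 15.1, 12.5, 13.8 and 19.5 CPM in CON and 11.5, 9.09, 10.2 and 8.99 CPM in LDP discs at 8 weeks, without overlap, on few UMIs. Rpsa (0.19, SE 0.095), Rpl11 (0.12), Rplp0 (0.12), Rps19 (0.12) and Rpl5 (0.03) did not pass.

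**Figure D4:**
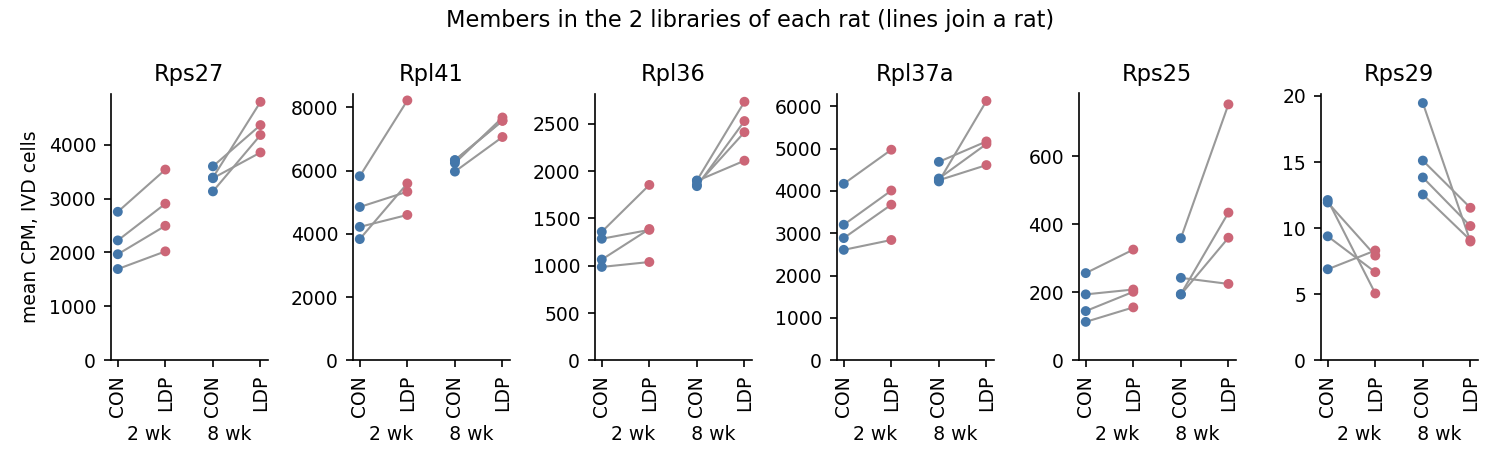
Levels of Rps27, Rpl41, Rps25, Rpl36, Rpl37a and Rps29 in IVD cells (y axis, CPM) in the CON and LDP library of each of the 8 rats, joined by a line per rat. Lines rise from CON to LDP in all 8 rats for Rps27, Rpl41, Rpl36 and Rpl37a, in 7 for Rps25, and fall in 7 for Rps29.

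Whether these 5 members passed depended on which rats were included, while their log2 changes stayed above 0. With 1 rat left out the changes were 0.32 to 0.37 for Rps27, 0.26 to 0.33 for Rpl41 and 0.48 to 0.69 for Rps25. They were 0.28 to 0.35 for Rpl36 and 0.22 to 0.29 for Rpl37a. When 1 rat was left out, 0 members passed without rat 1, 3, 6 or 7, 1 passed without rat 2 or 5, and without rat 4 there were 2 (Rps27 higher, Rps29 lower), and without rat 8 there were 6, of which 3 were among the 5. In these fits 0.553 to 1.94% of all genes were called higher and 0.786 to 4.65% lower. Without the pairing by rat 0 were called higher and 1, Rps29, lower, and DESeq2 called 23 higher, where it called 8.81% of genes higher. With the median gene set to 0 in place of -0.12, the members' median was 0.28 and 7 were called higher, among them the 5, where 4.73% of genes were called higher and 2.55% lower. The summed level of 5 NP markers was 491 to 506 CPM in LDP and 353 to 403 CPM in CON IVD cells at 8 weeks, and that of 5 OAF markers was 849 to 2305 CPM and 1998 to 3417 CPM. The part of these shifts in the members' values was not tested.

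Over all cells of a library, 0 of 74 members passed at 2 weeks, where 0 of 12199 genes did (0%), and 0 passed at 8 weeks, where 0.0082% of genes did. Unadjusted p was under 0.05 for 5 and 9 members (of 1119 and 1114 genes). DESeq2 called 0 members (1.21% of genes) and 1 higher (0.828% of genes higher). The all-cell member share was the higher in LDP in 3 of 4 rats at 2 weeks (mean 1.60 points, SD 1.63) and in 3 of 4 at 8 weeks (mean 1.33 points, SD 2.26). Rat 1 (-0.0481 points) and rat 6 (-0.621 points) went the other way. Rat 4 (3.84 points) and rat 5 (4.59 points) had the widest gaps, with at most 1.38 points in the other rats at 2 weeks and 0.681 points at 8 weeks. Within the 2-week subclusters 0 of 73 members passed in NP (0% of 10810 genes), IAF (0.138% of 10854) and OAF cells (1.32% of 11570). There 4, 3 and 1 members (of 1078, 1464 and 1265 genes) had an unadjusted p under 0.05. The share rose from CON to LDP in 4 of 4 rats in NP cells (mean 1.34 points, SD 1.44) and in 3 of 4 in IAF (1.40, SD 1.51) and OAF cells (0.792, SD 1.49). Rat 4 had the widest gap each time (NP 3.36, IAF 3.15, OAF 2.87 points). The next widest gaps were 1.39 points (NP, rat 2), 2.01 points (IAF, rat 2) and 0.654 points (OAF, rat 3). The OAF mean thus lay above the gap of every rat but rat 4. Rat 1 had the negative values (IAF -0.341, OAF -0.644 points).

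In the other classes no member passed by limma either. Endothelial cells at 2 weeks had 0 of 73 (0% of 11149 genes), with 3 members (of 507 genes) at an unadjusted p under 0.05. Their LDP share was higher in 4 of 4 rats (mean 1.29 points, SD 1.44), by 3.43 points in rat 4 and by 0.307 to 0.796 points in the others. Myeloid cells at 2 weeks had 0 of 73 (0% of 11147 genes), with 1 member (of 501 genes) at an unadjusted p under 0.05. Of the 73, 59 were below 0, with a median log2 change of -0.13 beside -0.10 for all genes. The LDP share was higher in 2 of 4 rats (mean -0.750 points, SD 1.93), with rat 1 at -3.62 points. Lymphoid cells at 8 weeks, in the 3 rats with at least 20 such cells in both libraries, had 0 of 73 (0.0205% of 9739 genes). In them 4 members (of 263 genes) had an unadjusted p under 0.05. The LDP share was higher in 3 of 3 (mean 2.58 points, SD 2.40), by 5.02, 0.228 and 2.48 points in rats 5 to 7. In the cells without a name the LDP share was the higher in 4 of 4 rats at 2 weeks (mean 2.90 points, SD 1.42) and in 1 of 4 at 8 weeks. These cells were mixed. Over 16 libraries their granulocyte markers summed to 0 to 150058 CPM and their endothelial markers to 14.6 to 4109 CPM. Their CON and LDP shares may therefore come from unlike cells, and the part of this in the share was not tested.

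Myeloid cells at 8 weeks had a lower share in LDP discs. The member share was 20.2%, 15.3% and 16.4% in CON and 13.98%, 11.0% and 13.1% in LDP discs of rats 5 to 7, lower in 3 of 3 (mean -4.59 points, SD 1.49). Of 73 members 70 were below 0 with a median log2 change of -0.47, beside -0.38 for all genes, and 0 passed (0.475% of genes did), though 31 (of 1180 genes) had an unadjusted p under 0.05. These 6 libraries held 34 to 147 myeloid cells each. The 6 myeloid markers summed to 3637, 5378 and 6905 CPM in CON and to 11696, 8516 and 10690 CPM in LDP discs of these rats, and the 5 lymphoid markers to 106, 92.2 and 109 CPM and 9.0, 71.2 and 21.7 CPM, so the labelled myeloid cells differed in markers as well. The part of this in the share was not tested.

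The second comparison set discs at 8 weeks against discs at 2 weeks, in separate rats. The rats at 8 weeks were also older, and the labels give no preparation day, so time, age and preparation cannot be told apart. In CON discs 20 of 73 members were higher at 8 weeks and 0 were lower, where 7.47% of 11197 genes were called higher and 11.8% lower. The median member change was 0.28 on the log2 scale, beside -0.02 for all genes, with 64 of 73 above 0. In LDP discs 8 of 73 were higher and 0 lower, where 1.1% of 10955 genes were called higher and 3.28% lower, with a median of 0.37 beside -0.09. All 8 were among the 20, and the comparisons share the same 8 rats but no library.

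Rpl31 had the smallest adjusted p in CON discs. It was at 690, 724, 578 and 785 CPM in CON discs at 2 weeks and at 1180, 1261, 1360 and 1187 CPM at 8 weeks, a gap far wider than the spread within either time (0.85, SE 0.112, limma adjusted p = 0.0015). In LDP discs Rpl31 was at 699, 779, 590 and 878 CPM and then at 1578, 1572, 1324 and 1397 CPM (1.01, SE 0.150, limma adjusted p = 0.0092), which is 2.01-fold.

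Rps21, a small subunit protein, moved from 564 to 742 CPM at 2 weeks to 1059 to 1225 CPM at 8 weeks in CON discs (0.81, SE 0.113, limma adjusted p = 0.0017) and from 584 to 1120 CPM to 1176 to 1834 CPM in LDP discs (1.05, SE 0.219, limma adjusted p = 0.029).

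Rps27l, a paralog of Rps27 that p53 induces, was at 184, 159, 178 and 221 CPM in CON discs at 2 weeks and 301, 334, 323 and 310 CPM at 8 weeks (0.78, SE 0.106, limma adjusted p = 0.0016), and in LDP discs its change was also 0.78 (SE 0.146, limma adjusted p = 0.0192). Rpl27, a large subunit protein, changed by 0.63 in CON (SE 0.0962, limma adjusted p = 0.0027) and 0.77 in LDP discs (SE 0.147, limma adjusted p = 0.0212). The groups of both genes did not overlap in either condition.

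Rpl23a, Rpl36 and Rpl36a were also among the 8 members called in both conditions. The 12 called in CON discs only were Rpl22l1, Rpl24, Rpl35al1, Rpl36al, Rpl37a, Rpl39l, Rpl9, Rps10l1, Rps12, Rps13, Rps27 and Rps28, and no test of a difference between the conditions was made for them. Rpl39l, which was low and seldom counted outside IVD cells, was at 4.49, 4.43, 5.86 and 5.85 CPM in CON discs at 2 weeks and 12.2, 8.38, 7.85 and 10.3 CPM at 8 weeks (0.79, SE 0.154, limma adjusted p = 0.0075). Rps19 (0.80, SE 0.280, limma adjusted p = 0.068) changed as much in CON discs but varied between rats and did not pass. Rplp0 (-0.13, SE 0.110) and Rpsa (-0.11, SE 0.108) had negative values that did not pass, unlike the median member.

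**Figure D5:**
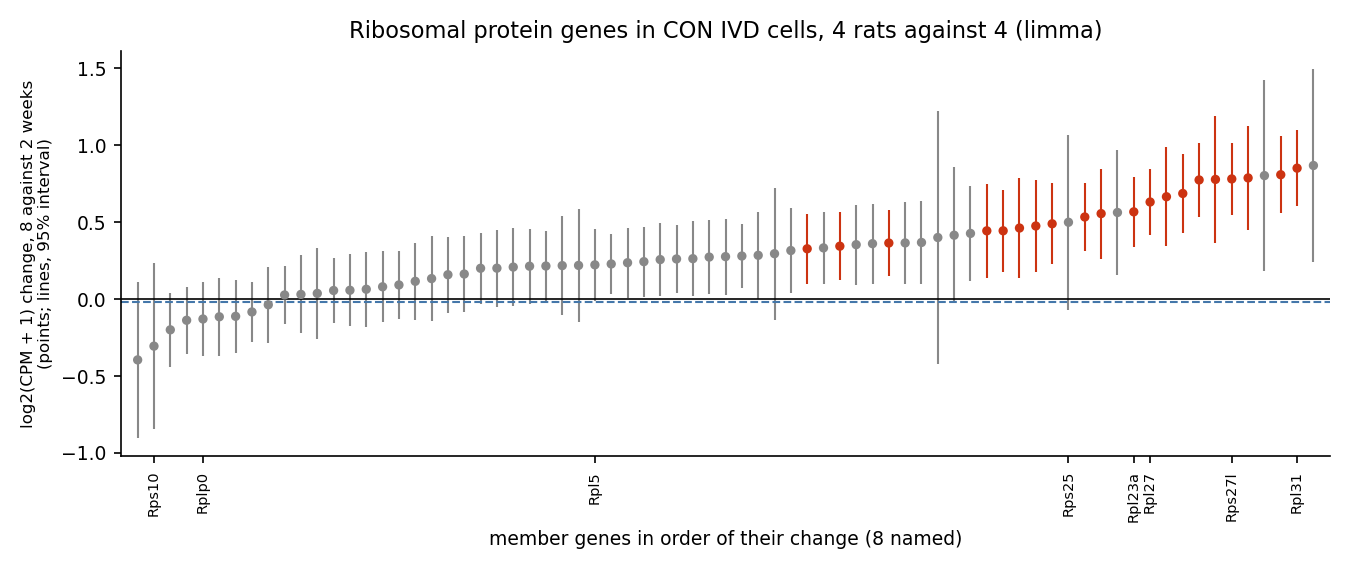
Log2 change of each of the 73 members tested in CON IVD cells between 8 and 2 weeks after surgery (y axis, log2(CPM + 1) scale), with 95% intervals from limma, members in order of the change with 8 of them named, those called in red, and a dashed line at the median of all genes. The 20 members called all lie above 0, with Rpl31 at 0.85.

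In CON discs 31 members had all 4 libraries at 8 weeks above all 4 at 2 weeks, where 9.71% of genes did, and 0 had them all below, where 14.5% of genes did. In LDP discs 21 did, where 6.41% of genes did, and 0 were all below, where 9.27% of genes were. The summed share rose by 2.18 points in CON discs (SE 0.617, 10.1 to 12.7% against 12.8 to 14.1%, no overlap) and by 2.86 points in LDP discs (SE 1.35), where LDP rat 4 at 15.8% overlapped the later libraries. Leaving out 1 rat at a time gave 10 to 32 calls in CON discs and 2 to 36 in LDP discs, with 10 without rat 3 (3.39% of genes higher), 32 without rat 4 (6.05%), and in LDP discs 2 without rat 2, 3 or 6 (0.210 to 0.338%) and 36 without rat 4 (3.47%). Over these fits the share of genes called higher was 3.39 to 9.04% in CON and 0.210 to 3.47% in LDP discs. DESeq2 called 40 members higher in CON discs, where it called 13.2% of genes higher, and 13 in LDP discs (5.84%), where edgeR called 3 (1.41%).

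Other features of the IVD cells moved with time. The 5 OAF markers summed to 7303 to 13319 CPM at 2 weeks and 1998 to 3417 CPM at 8 weeks in CON discs, and to 6113 to 12639 CPM and 849 to 2305 CPM in LDP discs. The 5 disc markers fell from 19557 to 28739 CPM to 9031 to 13591 CPM in CON discs. OAF cells were 9.28 to 14.6% of CON and 6.29 to 16.4% of LDP IVD cells at 2 weeks, and no subclusters were given at 8 weeks. Of the 73 members tested, 30 had all CON values of 8-week IVD cells above all CON values of 2-week NP cells taken alone, 23 above those of IAF cells and 46 above those of OAF cells, where 13.3%, 10.4% and 22.6% of genes did. In LDP discs 16, 21 and 32 members did, where 4.87%, 9.01% and 18.7% of genes did. In cells of 2000 to 8000 UMIs the median member change in CON discs was 0.27, with 16 called higher, where 6.44% of genes were. With the median gene set to 0, 19 members were called higher in CON discs, where 9.40% of genes were higher and 9.88% lower, and 6 in LDP discs, where 1.84% were higher and 2.57% lower.

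Related gene groups were counted in the same tests, to be read beside the shares of all genes given above. These were 1.98% higher and 5.46% lower with injury, and 7.47% higher and 11.8% lower with time in CON discs. With time in LDP discs they were 1.1% higher and 3.28% lower. Mitochondrial ribosomal proteins, which serve the separate ribosome of the mitochondrion, had 3 of 72 higher and 0 lower with injury over both times (Mrps30 0.43, Mrpl33 0.45 and Mrpl52 0.35), with a median of 0.18. With time in CON discs 19 of 72 were higher and 0 lower, with a median of 0.25, among them Mrps35 (0.68), Mrpl53 (0.55) and Mrpl30 (0.66), and in LDP discs 0 were called.

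The other genes whose messengers carry a TOP start, such as elongation factors, had 0 of 18 called with injury (median 0.04), and 4 higher and 2 lower with time in CON discs (median 0.13). Eef1a1, the factor that brings transfer RNA to the ribosome, was lower at 8 weeks (-0.65, SE 0.136, limma adjusted p = 0.0109) and so was Eef2, which moves the ribosome along (-0.36), while Nap1l1 (0.52) and Tpt1 (0.39) were higher. Elongation and initiation factors as a list, which holds Eef1a1 too, had 0 of 22 called with injury (median -0.01), and 3 higher and 2 lower with time in CON discs (median 0.06).

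Ribosome biogenesis and RNA polymerase I genes had 0 of 33 called with injury (median -0.03) and 7 higher and 0 lower with time in CON discs (median 0.25), led by Polr1d (0.45), Ltv1 (0.51) and Nop10 (0.56), and 2 higher in LDP discs. Genes that control translation with growth had 0 higher and 1 lower of 18 with injury, near the share of all genes, Eif2ak3, the stress kinase PERK (-0.68, SE 0.166, limma adjusted p = 0.0392), with a median of -0.20. With time in CON discs 1 was higher, Rheb (0.38), and 3 lower, among them Deptor, an mTOR inhibitor (-0.999, SE 0.164, limma adjusted p = 0.0036), and Tsc1 (-0.45). Immediate early genes, which tissue digestion can induce, had 0 of 10 called with injury (median -0.49). The summed level of this list in IVD cells was 8360 CPM in CON rat 2. It was 2499 to 3201 CPM in the other CON libraries at 2 weeks. The part of CON rat 2 in the median was not tested. In CON discs 1 gene of this list was higher with time, Hspa1a (0.87), which is a heat shock gene, and in LDP discs 3 were higher.

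A few members, chosen after their values were seen, differed by rat or library. Rpl30 was at 93.2 and 80.1 CPM in the CON and LDP library of rat 3 and at 195 to 482 CPM in the other 14. Rpl7l1 was at 3.74 CPM in LDP rat 4 and 4.42 CPM in LDP rat 5, the 2 libraries with the highest IVD share, and at 9.28 to 14.04 CPM in the others. Rps6, the small subunit protein phosphorylated by S6 kinase, was at 580 CPM in CON rat 6, 791 CPM in CON rat 7 and 782 CPM in LDP rat 6 and at 190 to 543 CPM elsewhere, and Rps19 was highest in the same 3 libraries (737, 881 and 961 CPM). In the lymphoid cells of LDP rat 3 the authors' subclusters 1 and 2 had member shares of 13.1% and 16.8%, and in LDP rat 4 of 20.7% and 23.4%, with subcluster 2 the higher and the deeper (median 3122 against 1216 UMIs, and 3971 against 1593).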

How the data were processed

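Cells of 16 libraries from 8 rats had been sequenced by 10x 3′ chemistry and processed by the authors in Partek Flow, with rn6 named in the processing notes. The aligner and counting rules are not given in the sources used here. The authors kept cells with under 10% mitochondrial reads, 500 to 3000 genes and 500 to 30000 UMIs, and named classes by K-means clustering. No doublet caller was run here. The deposited values are log2(CPM + 1) per cell and gene, beside the deposited total count (an expected count) and the authors' percent of ribosomal reads per cell. Dividing out the total gave whole counts, within 0.02, for 99.4% of values above 0.

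CPM was averaged over the cells of a class in each library (at least 20 cells), transformed as log2(CPM + 1) and fitted with limma 3.58.1 (R 4.3.3), two-sided and with Benjamini-Hochberg adjustment over all genes with a mean of at least 1 CPM in at least 4 libraries. Fold changes on this scale understate those of low genes. Injury was tested with the rat as a block, since CON and LDP discs came from the same animal. The deviations of the libraries of a rat correlated by -0.18 to 0.45 in IVD cells and -0.59 to 0.61 over all cells. Time was tested between rats, separately in CON and LDP. Residual degrees of freedom are between rats, which are the replicates. With 4 rats a group, depth per class (25 to 14252 cells a library) limits precision.

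Named members were, per comparison, up to 5 in each direction with the smallest adjusted p under 0.05 (otherwise the 3 largest changes), the 3 highest and 3 lowest in each class ratio relative to the median member, the paralogs, the 3 most and least abundant, Rplp0, Rpsa, Rpl5, Rpl11 and Rps19, the 5 genes most like the sum, and up to 3 genes a list. A few members that this rule names are not reported here. The members and lists were chosen with earlier results of these data known. Alternatives were no block, other pseudocounts (0.1 and 10), filters, pooled counts, scalings, a UMI window, edgeR 4.0.16 and DESeq2 1.42.0 on the recovered counts, and each rat left out. Fits were tested on simulated data. Python 3.11.15, numpy 2.4.6, pandas 2.3.3 and scipy 1.17.1 were used.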

Additional observations from a re-analysis of the deposited data

Results flagged for a closer look

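In groups of 4 libraries, the highest or lowest library stood far from the others in 9 of 153 groups examined (the summed share by class, and 34 members in IVD cells), and chance gives about 1 in 20. The endothelial member share at 2 weeks was 13.6% in CON rat 4 (next 12.3%) and 17.1% in LDP rat 4 (next 13.1%). In IVD cells, Rpl12 was at 1058 CPM in CON rat 4 (next 708 CPM) and Rpl32 at 462 CPM in CON rat 4 (next 308 CPM). Rpl7 was at 3449 CPM (next 2403 CPM) and Rpl19 at 5532 CPM (next 4076 CPM) in LDP rat 4. Rpl37a was at 4688 CPM (next 4294 CPM) and Rpl3 at 1516 CPM (next 1308 CPM) in CON rat 7, and Rps6 was at 386 CPM in CON rat 2 (next 240 CPM). Libraries of rat 4 make up 6 of the 9, and the results without it stand beside the injury and time comparisons of IVD cells. For all cells, endothelial cells and the subclusters the gap of rat 4 is given, but no mean without it.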

How the results depend on the processing

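The 5 members called with injury over both times became 3 without the filter on low values (1.46% of genes higher), 1 in cells of 2000 to 8000 UMIs (0.907%), 23 by DESeq2, 0 to 6 with 1 rat left out, and 2 (1 higher, 1 lower) without both rats 4 and 5, an alternative chosen after seeing the data (2.68% of genes higher, 6.20% lower). Without the replicate block, 1 member, Rps29, was called, and it was lower, as were 5.95% of genes. At 8 weeks alone the 0 became 6 by DESeq2 and 0 to 1 with 1 rat left out, and over all cells at 8 weeks it became 1 by DESeq2. The block changed no other count of members. For time, the 20 in CON discs became 40 by DESeq2 and 10 to 32 with 1 rat left out. The 8 in LDP discs became 3 by edgeR, 13 by DESeq2, 38 without both rats 4 and 5 (5.37% of genes higher) and 2 to 36 with 1 rat left out. All these calls but the lower ones named were higher. The cause was not tested. The NP over IAF ratio was -0.13 in cells of 2000 to 4000 UMIs (2 libraries). Of 470 values of 24 named results under the alternatives, 403 kept their side of the threshold, 64 lost it, 3 gained it and 0 changed sign. With 1 rat left out, the injury difference in share was 0.669 to 1.72 points at 2 weeks and 1.17 to 2.44 points at 8 weeks, and the time difference 1.83 to 2.67 points in CON and 2.17 to 3.98 points in LDP discs. Fits of 3 rats (lymphoid and myeloid cells at 8 weeks), few UMIs (Rps29, Rpl7l1, Rpl39l and Rpl3l) and the uncertain names of the LDP subclusters limit what these data show.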
